A study of Mus musculus with 26 samples.

Results

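Pyruvate oxidation and the citric acid cycle were followed through 9 genes, Pdk4, Pdha1, Cs, Idh2, Idh3a, Idh3b, Idh3g, Mdh2 and Fh1, which cover the control of pyruvate entry, the condensation that opens the cycle and several of its dehydrogenase steps. Members were every probe set that the array annotation assigns to 1 of these symbols and to no other gene. This gave 20 of 45037 probe sets and 9 of 18193 genes. RNA came from the inguinal mammary gland of mice and was hybridised to Affymetrix mouse genome arrays, on which a gene is read by 1 or more probe sets, each a group of short probes. Values are log2 expression values, so a difference of 1 is a doubling. There were 26 arrays in 6 groups, none carrying a treatment or an engineered allele. CBA/CaH mice, an inbred strain, were sampled on day 12 of pregnancy (5 arrays) and day 9 of lactation (3 arrays). QSi5 mice, the other parental strain, were sampled on the same days (5 and 3 arrays). Mice of the Advanced Intercross Line (AIL), from generation 14 of a cross between CBA/CaH and QSi5 mice, were sampled on day 9 of lactation only, 5 arrays under the code AC and 5 under AQ. Neither code is explained in the labels, which give no ages either. Each label names 1 mouse, so p-values measure the spread between these mice.

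Pyruvate made by glycolysis enters the mitochondrion and is turned into acetyl-CoA by the pyruvate dehydrogenase complex, whose catalytic E1 alpha subunit is encoded by Pdha1. The pyruvate dehydrogenase kinases, Pdk4 among them, phosphorylate that subunit and switch the complex off, and Pdk4 is known as the kinase induced in fasting and when fatty acids are the fuel. Citrate synthase (Cs) joins acetyl-CoA to oxaloacetate, after which citrate can be oxidised through the cycle or exported to the cytosol, where a lactating mammary cell uses it to build milk fat.

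The gland is a mixture of cells whose make-up changes between the stages, and in whole tissue fewer cells of a type and less RNA per cell cannot be told apart. The milk protein gene Csn2 was high in all groups (group means 14.69 to 14.85), and the other milk protein markers were higher at lactation. Wap was at 12.08 (CBA/CaH) and 12.80 (QSi5) in pregnancy against 15.09 in both, and Lalba at 11.88 and 12.58 against 14.41 and 14.71. Csn1s1 was at 14.32 and 14.09 against 14.62 and 14.6, and Csn3 at 14.31 and 14.15 against 14.97 and 14.96. The epithelial markers Krt8, Krt18 and Epcam were lower at lactation, whereas Elf5 changed little (12.69 to 12.58 in CBA/CaH, 12.42 to 12.49 in QSi5). Mean Krt8 went from 12.63 to 10.56 in CBA/CaH and from 12.96 to 9.66 in QSi5, Krt18 from 12.05 to 9.65 and from 12.64 to 9.84, and Epcam from 11.81 to 10.10 and from 12.10 to 9.93. The part of these markers in the stage differences given next was not tested. Marker levels are given here as the median, over a cell type's markers, of each marker's deviation from its mean over all arrays. For the 9 secretory and luminal epithelium markers together, the group median was -0.03 at pregnancy and 0.07 at lactation in CBA/CaH, and -0.05 and -0.01 in QSi5. White adipocyte markers (9 of 12 measured) ran from -1.68 to 1.77 on pregnancy arrays and from -1.43 to -0.60 on parental lactation arrays. The 6 fibroblast markers ran from -0.36 to 2.09 and from -1.67 to -0.83, and the 6 endothelial markers from -0.36 to 1.37 and from -0.89 to -0.66. In all, 6 arrays stood apart, with a muscle, brown adipocyte, B and plasma cell or Gapdh 3' minus 5' value over 1 log2 unit above their group's median. They were pregnancy CBA/CaH 5 (brown adipocyte markers 2.45), pregnancy QSi5 3 and 5 (muscle markers 5.56 and 1.21), pregnancy QSi5 4 (Gapdh 3' minus 5' value 6.50, others of its group 1.20 to 1.74), lactation QSi5 2 (B and plasma cell markers 1.98) and AIL AC 1 (muscle markers 4.24). Over the 8 members other than Pdk4, the median deviation was highest on pregnancy CBA/CaH 5 (1.35, others of its group 0.15 to 0.53) and, within QSi5, lowest of the pregnancy arrays on array 4 (0.02, others 0.35 to 0.58).

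Between day 12 of pregnancy and day 9 of lactation, 7 of the 9 genes fell in both strains and none rose, each gene being represented by its brightest probe set. These were Pdk4, Idh2, Idh3a, Idh3b, Idh3g, Mdh2 and Fh1, while Cs and Pdha1 did not pass the test. Over all genes, 29.5% were called lower in CBA/CaH, 32.7% in QSi5 and 27.0% in both, while 30.4% and 33.0% were called higher. Among the 5071 genes at least as bright as the dimmest member, 51.8% were called lower in CBA/CaH, 55.1% in QSi5 and 47.8% in both, which is the background the 7 of 9 must be read against. Of those bright genes 10.5% and 11.7% were called higher. The median difference of the 9 genes was -1.39 in CBA/CaH and -0.95 in QSi5, beside -0.60 and -0.66 for the 5071 bright genes and 0.05 and 0.04 for all genes.

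Bright genes as a whole were thus lower at lactation in the deposited values, and the size of the members' falls depends on how the arrays are scaled. After quantile normalization of the deposited values, which gives all arrays the same distribution, the median of the 5071 bright genes was 0.01 and 0.04, and that of the 9 members was -0.79 and -0.30. Under that scaling 6 members were called lower in CBA/CaH and 4 were in QSi5. Pdk4, Idh2, Idh3a and Mdh2 kept their call in both strains, Idh3b and Fh1 in CBA/CaH (adjusted p = 0.0338 and 0.0426) but not in QSi5 (adjusted p = 0.685 and 0.394), and Idh3g in neither (adjusted p = 0.338 and 0.663). Setting array medians equal moved the members' median the other way, to -1.56 and -1.18.

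**Figure D1:**
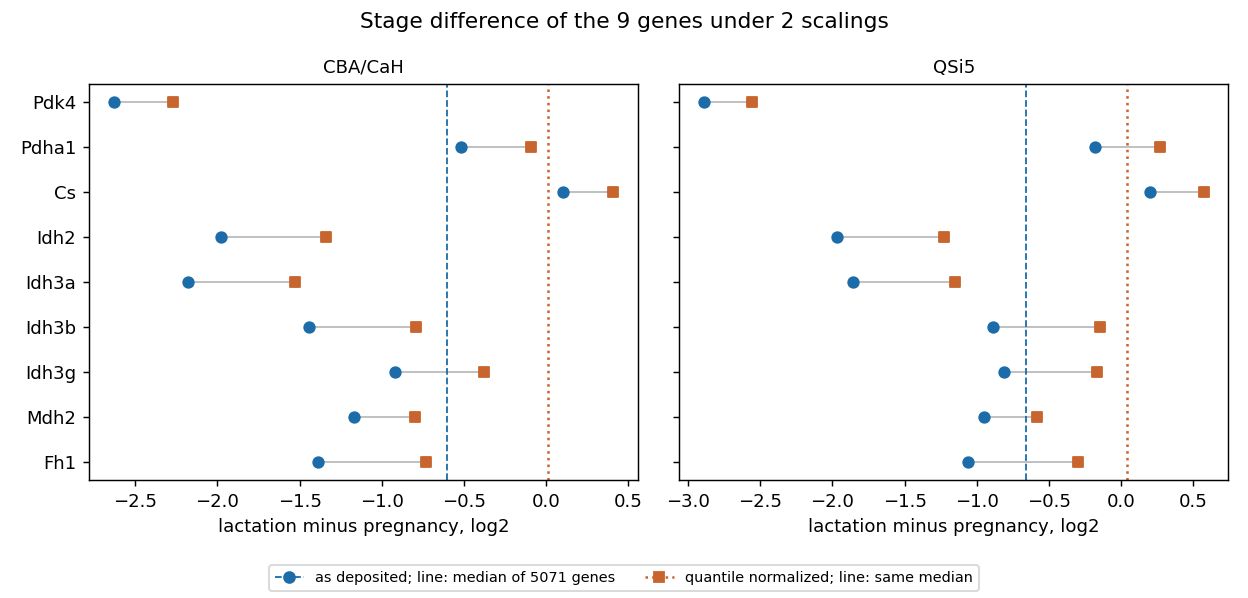
Lactation minus pregnancy difference (log2) of the brightest probe set of each gene, in CBA/CaH (left) and QSi5 (right), as deposited (circles) and after quantile normalization (squares), with the median of 5071 equally bright or brighter genes as vertical lines. Every symbol moves to the right after quantile normalization, and Pdk4, Idh2 and Idh3a remain farthest to the left in both strains.

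As a description of where each gene stood among the 5071 bright genes, the share of them with a lower stage difference was 2.31% for Pdk4 in CBA/CaH and 1.99% in QSi5. It was 5.03% and 11.2% for Idh3a, 7.26% and 9.25% for Idh2, and between 17.1% and 43.3% for Fh1, Idh3b, Mdh2 and Idh3g. Pdha1 lay at 53.4% and 69.1%, and Cs at 78.3% and 81.0%, near the upper end.

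Counting probe sets, 9 of the 20 fell in each strain, beside 20.7% of all probe sets in CBA/CaH and 23.1% in QSi5. In CBA/CaH 2 rose and in QSi5 3 rose, beside 32.3% and 35.9% of all probe sets. After quantile normalization the counts were 7 lower and 4 higher in CBA/CaH, and 4 lower and 4 higher in QSi5. The same 9 fell in both strains (18.5% of all probe sets did), and 2 rose in both (27.4% of all did). The risers were further probe sets of Idh3a and Idh2, whose brightest probe sets fell.

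**Figure D2:**
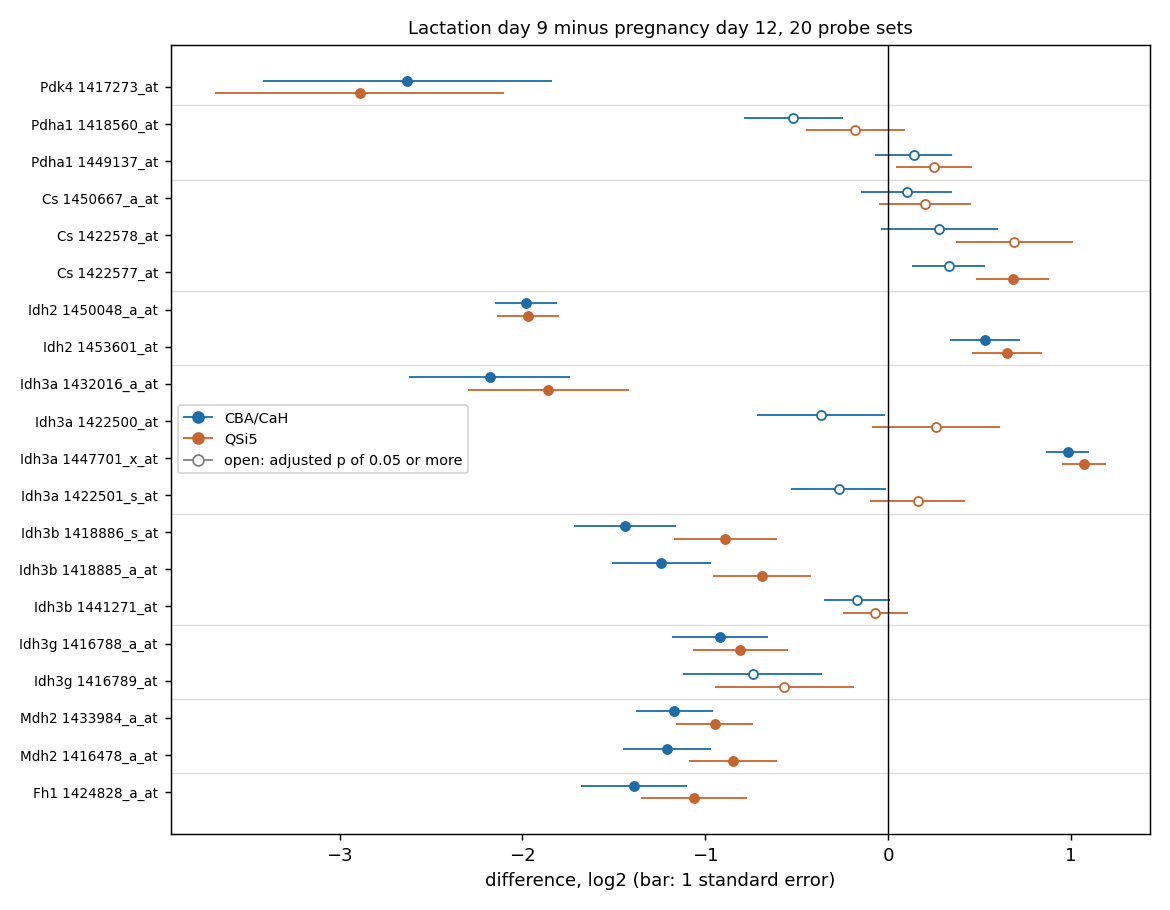
Lactation day 9 minus pregnancy day 12 difference (log2, with 1 standard error) of the 20 probe sets in CBA/CaH (5 and 3 arrays) and QSi5 (5 and 3 arrays); filled points had an adjusted p under 0.05. Pdk4 has the lowest values and the widest errors (-2.63 and -2.89), and the Idh3a probe sets run from -2.18 to 1.07.

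The promoters of Pdk4 and Idh2, which fell in both strains, and of Cs, which did not, are shown to let the 3 be compared. Each line is the 250 bases before the start site, read 5' to 3' on the gene's strand, from RefSeq on GRCm38.p6, and capitals mark matches on either strand to the letters CCAAT or to the GC box GGGCGG. Pdk4 lies at chr6:5496279-5496528 on the minus strand, Idh2 at chr7:80115351-80115600 on the minus strand and Cs at chr10:128337477-128337726 on the plus strand.
Pdk4: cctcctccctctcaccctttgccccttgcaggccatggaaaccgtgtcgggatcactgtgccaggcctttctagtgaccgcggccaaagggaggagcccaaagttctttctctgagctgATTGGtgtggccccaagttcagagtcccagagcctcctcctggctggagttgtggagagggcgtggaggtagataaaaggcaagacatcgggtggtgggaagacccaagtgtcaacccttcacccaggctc
Idh2: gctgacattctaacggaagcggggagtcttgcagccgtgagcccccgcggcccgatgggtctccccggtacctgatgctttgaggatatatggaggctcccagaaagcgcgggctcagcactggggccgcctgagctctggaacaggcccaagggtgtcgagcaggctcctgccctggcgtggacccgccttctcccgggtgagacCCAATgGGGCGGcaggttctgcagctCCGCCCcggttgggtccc
Cs: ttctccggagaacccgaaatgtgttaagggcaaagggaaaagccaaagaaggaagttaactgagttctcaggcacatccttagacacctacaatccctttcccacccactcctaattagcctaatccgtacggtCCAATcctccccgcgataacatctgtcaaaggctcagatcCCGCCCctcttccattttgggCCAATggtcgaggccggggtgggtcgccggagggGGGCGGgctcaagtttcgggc
The Cs window holds 2 CCAAT matches and 2 GC boxes, the Idh2 window 1 CCAAT match and 2 GC boxes, and the Pdk4 window 1 CCAAT match. No matches overlap. Of 32851 promoter windows of this length, 33.8% hold a CCAAT match and 32.7% a GC box, so these letters are common. Windows were found for 8 of the 9 members, not for Idh3a. GC content was 58.8% for Pdk4, 67.2% for Idh2 and 55.2% for Cs (median of all windows 52.4%), and CpG pairs numbered 6, 17 and 13 (median 6). The letters of 3 further motifs were searched on both strands, namely those bound by oestrogen-related receptors (TCAAGGTCA, in 0.387% of windows), GABP (CCGGAAG, 6.91%) and FOXO factors (GTAAACA, 3.17%). Among the 8 windows, the GABP letters were found once, in Idh3g, and the other two were not found in these bases.

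Pdk4, read by 1 probe set, had the largest fall of the 9 genes and the widest spread. Its values were 9.13, 8.57, 9.56, 8.76 and 11.54 on the pregnancy CBA/CaH arrays and 8.65, 8.07, 9.54, 8.22 and 8.80 on the pregnancy QSi5 arrays. At lactation they were 9.46, 6.0 and 5.20 in CBA/CaH and 6.18, 5.20 and 5.92 in QSi5. The QSi5 stages did not overlap, whereas lactation CBA/CaH 1 lay among the pregnancy arrays. Pdk4 fell by 2.63 log2 units in CBA/CaH, or 6.17-fold (SE of 0.79, adjusted p = 0.0113, n = 5 and 3), and fell by 2.89 in QSi5, or 7.40-fold (SE of 0.79, adjusted p = 0.00549, n = 5 and 3). The CBA/CaH difference rests on few arrays. It was -3.91 without lactation array 1 (adjusted p = 0.000242), and it was not called without lactation array 2 (-2.18, adjusted p = 0.0633) or 3 (-1.78, adjusted p = 0.0917). The highest value belonged to pregnancy CBA/CaH 5, the array with brown adipocyte markers, and without it the difference was -2.12 (adjusted p = 0.0236). Without all 6 arrays that stood apart it was -2.12 in CBA/CaH (adjusted p = 0.0286) and -2.31 in QSi5, where it was not called (adjusted p = 0.0639). White adipocyte markers had lower group medians at lactation as well (1.06 to -1.34 in CBA/CaH, 0.71 to -0.95 in QSi5). The arrays overlapped, since pregnancy CBA/CaH 2 was at -1.68, below all parental lactation arrays. The part of these markers in the Pdk4 difference was not tested.

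The high Pdk4 value of lactation CBA/CaH 1 stood beside muscle markers of -0.05, brown adipocyte markers of -0.60 and white adipocyte markers of -1.43. The muscle value was the highest of the 6 parental lactation arrays (others -0.37 to -0.20) and both adipocyte values were the lowest of its group, and their part in the Pdk4 value was not tested. Across all 26 arrays, the genes with the pattern most like Pdk4 were Angptl4, an inhibitor of lipoprotein lipase (Pearson r = 0.895), Ddhd2, a phospholipase (0.872), Acadl, a dehydrogenase of fatty acid oxidation (0.865), Klf10, a transcription factor (0.856), and Slc25a20, the mitochondrial carnitine carrier (0.855). These correlations describe arrays that share stage and strain. Within the 16 lactation arrays r was 0.89 for Angptl4, 0.83 for Klf10, 0.75 for both Acadl and Slc25a20 and 0.69 for Ddhd2. Within the 10 pregnancy arrays it was 0.05 for Angptl4 and -0.15 for Klf10, against 0.74 for Acadl, 0.71 for Ddhd2 and 0.70 for Slc25a20. Lactation CBA/CaH 1 had the highest Angptl4 value of the lactation arrays as well, 11.27 against 5.63 and 6.19 on the others of its group, and a Klf10 value of 6.72 against 4.02 and 4.01.

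Pdha1, the E1 alpha subunit that Pdk4 phosphorylates, did not pass the test between the stages. Its brightest probe set read 11.29, 11.68, 11.37, 11.52 and 12.24 in pregnant CBA/CaH mice and 11.64, 11.49, 11.68, 10.44 and 11.72 in pregnant QSi5 mice. At lactation it read 11.29, 11.25 and 10.75 in CBA/CaH and 11.31, 11.11 and 11.22 in QSi5. The stages met at 11.29 in CBA/CaH, and in QSi5 pregnancy array 4 lay below all lactation arrays. The differences were -0.52 in CBA/CaH (SE of 0.27, adjusted p = 0.114, n = 5 and 3) and -0.18 in QSi5 (SE of 0.27, adjusted p = 0.574, n = 5 and 3), the latter turning to 0.27 after quantile normalization. A dimmer probe set of Pdha1 differed by 0.14 and 0.25 (SE of 0.21 for both, adjusted p = 0.575 and 0.297). Quantile normalization made it a higher call in both strains (0.81 and 1.02, adjusted p = 0.00113 and 0.000138).

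Cs, which opens the cycle, had the highest stage difference of the 9 genes and was not called. Its brightest probe set ran from 11.14 to 12.65 over the 10 pregnancy arrays and from 11.55 to 11.99 over the 6 parental lactation arrays, so the stages overlapped. The differences were 0.10 in CBA/CaH and 0.20 in QSi5 (SE of 0.25 for both, adjusted p = 0.763 and 0.518), and both turned slightly below 0 when array medians were set equal (-0.08 and -0.02). The other probe sets of Cs differed by 0.28 and 0.33 in CBA/CaH and by 0.69 and 0.68 in QSi5, and of these only 1422577_at in QSi5 passed (SE of 0.20, adjusted p = 0.00827). That probe set read 9.62, 9.61, 9.99, 10.07 and 9.63 on the pregnancy QSi5 arrays and 10.47, 10.40 and 10.50 on the lactation QSi5 arrays, without overlap. The call was lost with equal array medians (0.45, adjusted p = 0.0593). In CBA/CaH the same probe set was called without pregnancy array 5 (0.50, adjusted p = 0.0115).

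**Figure D3:**
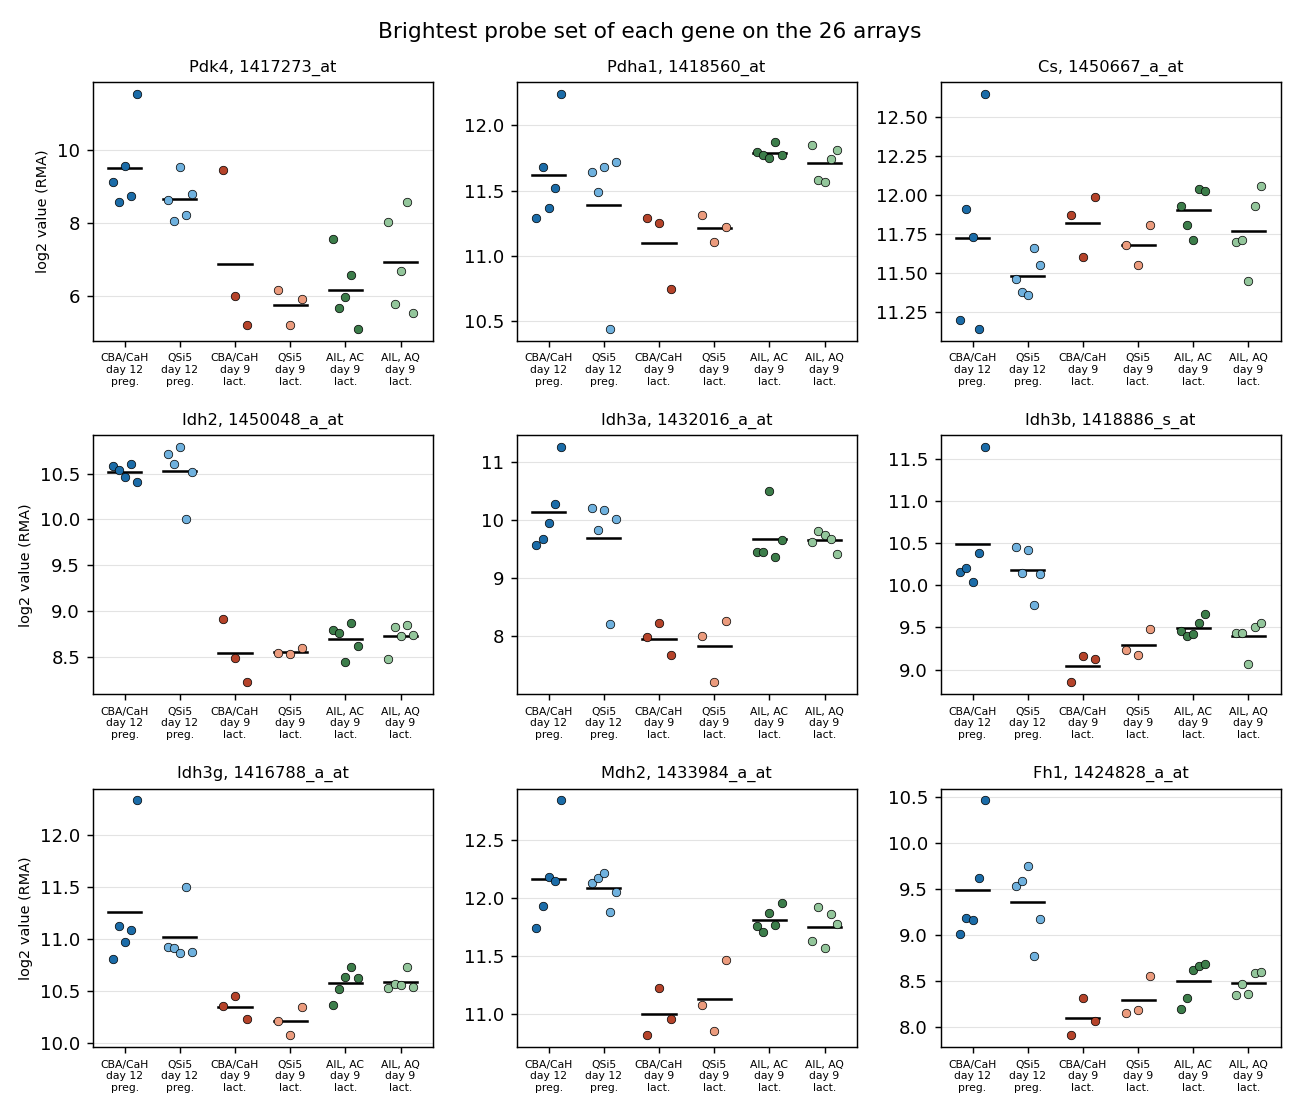
Log2 value (RMA) of the brightest probe set of each of the 9 genes on the 26 arrays, 1 point per array in replicate order and a bar at the group mean; the vertical scale differs between panels. Idh2 and Mdh2 separate the parental stages without overlap, Cs does not, and lactation CBA/CaH 1 stands at 9.46 in the Pdk4 panel.

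NAD-dependent isocitrate dehydrogenase, the cycle's regulated oxidative step, is built from a catalytic alpha subunit (Idh3a) and regulatory beta and gamma subunits (Idh3b and Idh3g). All 3 subunit genes fell by their brightest probe sets in the deposited values. Idh3a, through probe set 1432016_a_at, read 9.57, 9.67, 9.95, 10.27 and 11.25 in pregnant CBA/CaH mice and 7.98, 8.23 and 7.67 at lactation. In QSi5 it read 10.21, 9.82, 10.17, 8.21 and 10.01 and then 8.0, 7.21 and 8.27. Only pregnancy QSi5 4 fell within the lactation range. This probe set fell by 2.18 in CBA/CaH (SE of 0.44, adjusted p = 0.000832, n = 5 and 3) and fell by 1.86 in QSi5 (SE of 0.44, adjusted p = 0.00211, n = 5 and 3). Without each array in turn it stayed called, at -2.32 to -1.91 and -2.23 to -1.55.

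Idh3b fell by 1.44 in CBA/CaH (SE of 0.28, adjusted p = 0.000697) and fell by 0.89 in QSi5 (SE of 0.28, adjusted p = 0.0139), the latter lost without lactation QSi5 2 (-0.83, adjusted p = 0.0512). Pregnancy values lay between 9.77 and 11.64 and parental lactation values between 8.85 and 9.48, without overlap. A second probe set of it fell by 1.24 in CBA/CaH (SE of 0.27, adjusted p = 0.00148). In QSi5 that probe set was called at -0.69 (SE of 0.27, adjusted p = 0.0394), but its direction turned after quantile normalization (0.065). The QSi5 call was also lost without any 1 of pregnancy QSi5 arrays 1, 3, 4 and 5 or lactation QSi5 arrays 1 and 2 (-0.71 to -0.57, adjusted p = 0.0507 to 0.145). Idh3g fell by 0.92 (SE of 0.26, adjusted p = 0.00912) and fell by 0.81 (SE of 0.26, adjusted p = 0.0162), again without overlap, with pregnancy values of 10.80 to 12.33 and parental lactation values of 10.07 to 10.45. Its QSi5 call was lost without lactation QSi5 2 (-0.74, adjusted p = 0.0615). The second Idh3g probe set differed by -0.74 and -0.57 (SE of 0.38 for both, adjusted p = 0.114 and 0.206). In QSi5 it was called without pregnancy QSi5 4 (-0.91, adjusted p = 0.00871), and after quantile normalization its QSi5 sign turned (0.17).

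Idh2, the mitochondrial NADP-dependent isocitrate dehydrogenase, which makes NADPH rather than NADH, fell with the smallest error of the 9 genes by brightest probe set. Its brightest probe set read 10.58, 10.54, 10.47, 10.61 and 10.41 in pregnant CBA/CaH mice and 10.72, 10.61, 10.79, 10.01 and 10.52 in pregnant QSi5 mice. At lactation it read 8.91, 8.48 and 8.22 in CBA/CaH and 8.54, 8.53 and 8.59 in QSi5. The lowest pregnancy array stood more than 1 log2 unit above the highest lactation array. The fall was 3.96-fold in CBA/CaH (-1.98, SE of 0.17, adjusted p = 4.52e-07, n = 5 and 3) and 3.92-fold in QSi5 (-1.97, SE of 0.17, adjusted p = 3.27e-07, n = 5 and 3). After quantile normalization it was -1.34 (adjusted p = 2.79e-06) and -1.23 (adjusted p = 4.42e-06). Pregnancy CBA/CaH 5, high for most members, was the lowest of its group here. The dim second Idh2 probe set, 1453601_at, whose mean of 4.84 lies above only 42.9% of probe sets, was called higher by 0.53 in CBA/CaH (SE of 0.19, adjusted p = 0.0255) and 0.65 in QSi5 (SE of 0.19, adjusted p = 0.00752). Neither call survived quantile normalization (adjusted p = 0.18 and 0.119) or equal array medians (adjusted p = 0.124 and 0.0635). The CBA/CaH call was also lost without pregnancy array 3 (0.45, adjusted p = 0.056), lactation array 1 (0.54, adjusted p = 0.0554) or lactation array 2 (0.37, adjusted p = 0.152).

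Fumarase (Fh1) and mitochondrial malate dehydrogenase (Mdh2) catalyse the last steps, which restore oxaloacetate. Fh1 fell by 1.39 in CBA/CaH (SE of 0.29, adjusted p = 0.000988) and fell by 1.06 in QSi5 (SE of 0.29, adjusted p = 0.00506), from pregnancy values of 8.77 to 10.46 to lactation values of 7.91 to 8.55. Mdh2 read 11.74, 11.93, 12.18, 12.15 and 12.84 in pregnant CBA/CaH mice and 12.13, 12.17, 12.22, 11.88 and 12.05 in pregnant QSi5 mice. Its lactation values were 10.82, 11.23 and 10.96 in CBA/CaH and 11.08, 10.86 and 11.47 in QSi5. Neither gene's stages overlapped in either strain. Mdh2 fell by 1.17 (SE of 0.21, adjusted p = 0.000303) and fell by 0.95 (SE of 0.21, adjusted p = 0.0011). Its second probe set fell by 1.21 (SE of 0.24, adjusted p = 0.00075) and fell by 0.85 (SE of 0.24, adjusted p = 0.0068), so both probe sets of Mdh2 gave the same direction, although the second lost its QSi5 call after quantile normalization (-0.22, adjusted p = 0.455).

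Like those of Idh2, the probe sets of Idh3a were called in opposite directions. Probe set 1447701_x_at, whose suffix marks probes that can also match other sequences, read 6.58, 6.97, 6.97, 6.73 and 6.74 in pregnant CBA/CaH mice and 6.76, 6.72, 6.73, 6.72 and 6.82 in pregnant QSi5 mice. At lactation it read 7.90, 7.62 and 7.82 in CBA/CaH and 7.88, 7.92 and 7.66 in QSi5. It rose by 0.98 in CBA/CaH (SE of 0.12, adjusted p = 1.11e-05, n = 5 and 3), and in QSi5 the rise was 1.07 (SE of 0.12, adjusted p = 3.29e-06, n = 5 and 3), with no overlap. After quantile normalization the rise was 1.48 and 1.64. The remaining pair, 1422500_at and 1422501_s_at, differed by -0.37 and -0.27 in CBA/CaH and by 0.26 and 0.16 in QSi5, and no stage call was made for either (adjusted p = 0.376 to 0.607).

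**Figure D4:**
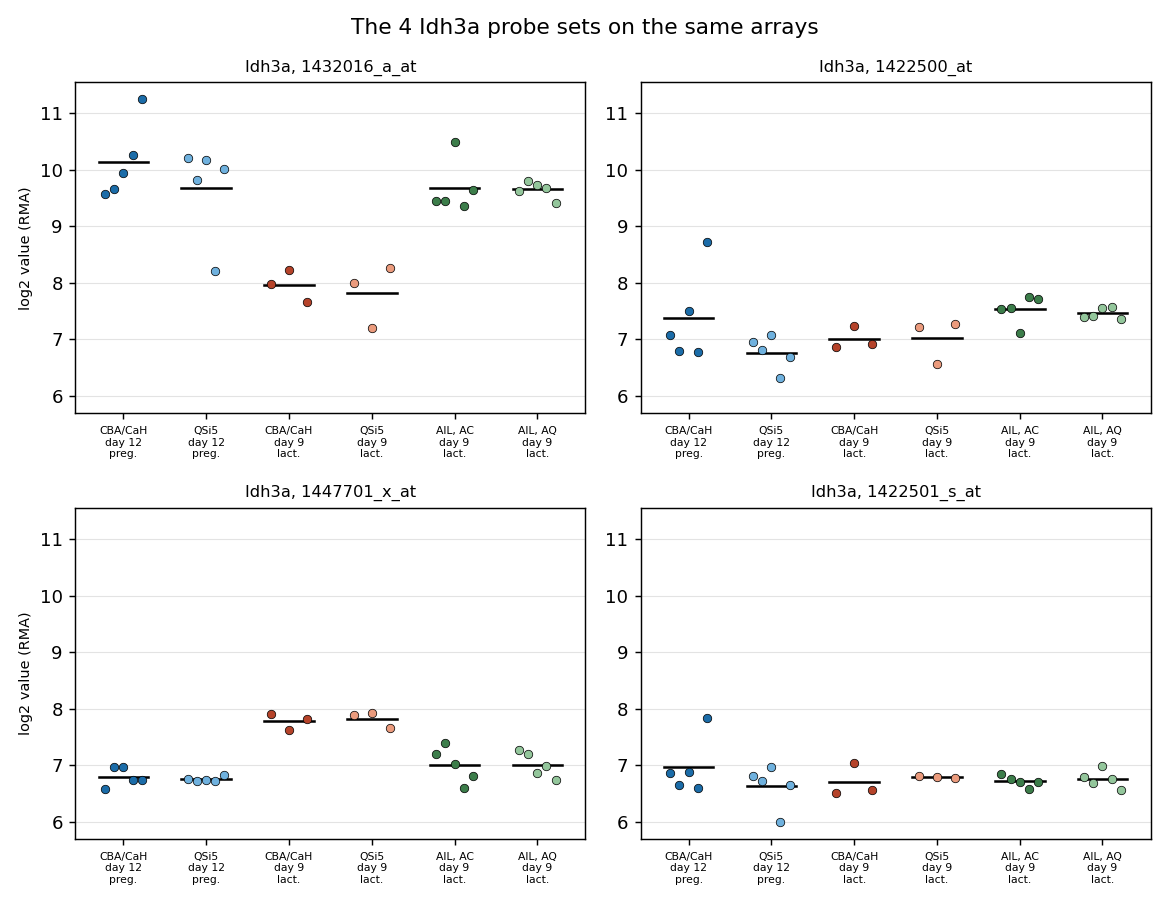
Log2 value (RMA) of the 4 Idh3a probe sets on the 26 arrays, on 1 vertical scale, with a bar at the group mean. From pregnancy to parental lactation 1432016_a_at goes down and 1447701_x_at goes up, and on the AIL arrays both lie nearer to their pregnancy values than to the parental lactation values.

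The difference between probe sets of 1 gene on the same array was compared between the stages with an exact two-sided permutation test of the stage labels within strain (3136 arrangements, smallest possible p 0.000319, adjusted over 11 pairs). For Idh3a the value of 1447701_x_at minus that of 1432016_a_at went from -3.34 ± 0.72 (SD, n = 5) to -0.18 ± 0.39 (SD, n = 3) in CBA/CaH and from -2.93 ± 0.82 (SD, n = 5) to -0.01 ± 0.67 (SD, n = 3) in QSi5. This is a mean change of 3.05, given as a description because these probe sets were known to be opposite when the comparison was chosen. Against the same probe set, 1422500_at changed by 1.96 and 1422501_s_at by 1.97. These are descriptions as well, because both pairs share 1432016_a_at, 1 of the opposite probe sets. Of the 10 pairs other than the opposite one, 6 passed, these further Idh3a pairs included. Among them were Idh2 (2.57, exact permutation, adjusted p = 0.000877), Pdha1 (0.55, exact permutation, adjusted p = 0.00175) and the dim Idh3b probe set (1.05, exact permutation, adjusted p = 0.0014). The last lost its call once quantile normalized (0.075, adjusted p = 0.771). The dim Idh2 and Idh3b probe sets had means of 4.84 and 4.18, and their gap changes were not tested apart from the falls of the bright probe sets. Scaling that shifts bright and dim probe sets differently does not cancel in such a gap. Cs 1422577_at passed narrowly (0.36, exact permutation, adjusted p = 0.0466) and was lost without almost any single array (0.31 to 0.38, adjusted p = 0.0513 to 0.115 in the settings where it was lost). The pairs of Mdh2 (0.03), Idh3g (0.21), the brighter Idh3b pair (0.20) and Cs 1422578_at (0.34) did not pass (exact permutation, adjusted p = 0.772, 0.772, 0.202 and 0.326). For these 4 genes or pairs the design does not show that the probe sets act alike.

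Across all 26 arrays the genes most like Idh3a 1432016_a_at were Immt, a scaffold protein of the mitochondrial inner membrane (Pearson r = 0.94), Sdhd, a membrane anchor of succinate dehydrogenase (0.937), Ndufs1, a core subunit of respiratory complex I (0.926), Clybl, a mitochondrial citramalyl-CoA lyase (0.925), and Ncoa4, the receptor for ferritin turnover (0.924). For Immt r was 0.94 within the 16 lactation arrays and 0.95 within the 10 pregnancy arrays, and for Ndufs1 it was 0.92 and 0.94. The lactation arrays include the AIL arrays, on which Idh3a was high, and the pregnancy arrays include CBA/CaH 5 and QSi5 4, on which it was 11.25 and 8.21. Immt fell by 0.76 in CBA/CaH (SE of 0.29, adjusted p = 0.0353) and fell by 0.85 in QSi5 (SE of 0.29, adjusted p = 0.0182).

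The rest of the pathway was read through lists of genes, each gene by its brightest probe set. Of 17 citric acid cycle genes measured, none rose, 14 fell in CBA/CaH and 13 did in QSi5, with a median difference of -1.44 and -1.12. Apart from the members, 8 of 10 fell in CBA/CaH and 7 of 10 in QSi5. These counts stand beside 51.8% and 55.1% of the 5071 bright genes called lower, with medians of -0.60 and -0.66, and 10.5% and 11.7% called higher. Dlst, the succinyltransferase of the oxoglutarate dehydrogenase complex, fell by 2.20 and fell by 2.17 (SE of 0.26 for both). Sucla2, a subunit of succinyl-CoA synthetase, fell by 2.01 and fell by 1.62 (SE of 0.24 for both). Sdhc, a membrane anchor of succinate dehydrogenase, fell by 1.84 and fell by 1.71 (SE of 0.22 for both), and Ogdh, the oxoglutarate dehydrogenase itself, fell by 1.86 and fell by 1.57 (SE of 0.35 for both). Like Cs, Sdhb, the iron-sulphur subunit of succinate dehydrogenase, and Pcx, the carboxylase that refills oxaloacetate, were not called (Sdhb 0.16 and 0.38, SE of 0.31 for both; Pcx -0.03 and 0.34, SE of 0.22 for both). After quantile normalization CBA/CaH had 11 lower and 1 higher, and QSi5 had 7 lower and 1 higher. The gene that rose was Pcx in both strains (0.59 and 0.98, adjusted p = 0.0366 and 0.00148), and the call of Ogdh in QSi5 was lost (adjusted p = 0.0578).

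Of 15 genes of pyruvate entry measured, CBA/CaH had 1 higher and 6 lower at lactation, and QSi5 had 4 higher and 5 lower, beside 30.4% (higher) and 29.5% (lower) of all genes for CBA/CaH and 33.0% and 32.7% for QSi5. The QSi5 counts are thus near the background. Mpc1, a subunit of the mitochondrial pyruvate carrier, rose by 1.56 in CBA/CaH (SE of 0.51, adjusted p = 0.0183) and by 2.69 in QSi5 (SE of 0.51, adjusted p = 0.0004). The kinases Pdk3 and Pdk2 fell along with Pdk4. Pdk3 fell by 1.44 and fell by 1.53 (SE of 0.21 for both), and Pdk2 fell by 1.41 and fell by 1.48 (SE of 0.27 for both). Pdk1, the other kinase of the family, rose by 1.09 in QSi5 (SE of 0.29, adjusted p = 0.00518), and its difference in CBA/CaH was 0.28 (SE of 0.29, adjusted p = 0.426). Dld, the dihydrolipoamide dehydrogenase shared by the pyruvate and oxoglutarate complexes, fell by 1.41 in CBA/CaH (SE of 0.56, adjusted p = 0.0435) and was not called in QSi5 (-0.94, SE of 0.56, adjusted p = 0.157) or, after quantile normalization, in CBA/CaH (adjusted p = 0.199). When the arrays that stood apart were left out, Dld was called lower in CBA/CaH (-1.26, adjusted p = 0.000347) as well as in QSi5 (-1.40, adjusted p = 0.00134). Pdpr and Pdhx, a regulatory subunit of the dehydrogenase phosphatase and the binding protein of the complex, were not called in either strain (Pdpr -0.22 and 0.77, SE of 0.87; Pdhx -0.49 and 0.05, SE of 0.33).

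Of 10 genes of citrate export and its cytosolic counterparts, CBA/CaH had 2 higher and 3 lower at lactation and QSi5 had 3 of each, near the shares of all genes. All 10 were at least as bright as the dimmest member. Of the 5071 bright genes, 51.8% and 55.1% were called lower and 10.5% and 11.7% higher. Beside those shares the list had fewer falls and more rises, a difference that was not tested. Idh1, the cytosolic isocitrate dehydrogenase, fell by 2.40 and fell by 2.80 (SE of 0.29 for both), and Slc25a10, the dicarboxylate carrier, fell by 1.51 and fell by 1.44 (SE of 0.16 for both). Slc25a1, which carries citrate out of the mitochondrion, rose by 2.17 in QSi5 (SE of 0.39, adjusted p = 0.00023) and its difference in CBA/CaH was 0.73 (SE of 0.39, adjusted p = 0.12). The dependence on strain was not called (1.44, adjusted p = 0.831), and in CBA/CaH Slc25a1 was called higher after quantile normalization (1.27, adjusted p = 0.0184) and when the arrays that stood apart were left out (1.01, adjusted p = 0.0166). Me1, the cytosolic malic enzyme, rose by 0.92 (SE of 0.34, adjusted p = 0.0322) and 1.84 (SE of 0.34, adjusted p = 0.000303). Acly, which cleaves citrate to acetyl-CoA, differed by 0.15 and 0.94 (SE of 0.39 for both, adjusted p = 0.761 and 0.0517), and Aco1 by -0.37 and -0.38 (SE of 0.18 for both, adjusted p = 0.103 and 0.0861). With array medians set equal this list had 0 higher and 4 lower in CBA/CaH, and after quantile normalization 4 higher and 2 lower.

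Of 12 general mitochondrial genes measured, 11 fell in each strain and none rose, with a median of -0.98 and -1.25, so falls of this size were not limited to the cycle. Many bright genes outside these lists fell too. Of the 5071 bright genes 51.8% were called lower in CBA/CaH and 55.1% in QSi5, with medians of -0.60 and -0.66. Tfam, which packages mitochondrial DNA, fell by 2.40 and fell by 2.16 (SE of 0.28 for both). Hspa9, a matrix chaperone, fell by 1.77 and fell by 1.88 (SE of 0.21 for both). Lonp1, a matrix protease, fell by 1.65 and fell by 1.64 (SE of 0.23 for both), and Vdac3, an outer membrane channel, fell by 1.59 and fell by 1.57 (SE of 0.15 for both). Timm23, of the import channel, was not called (-0.25 and -0.05, SE of 0.17 for both). After quantile normalization 7 fell in each strain, and 1 rose in QSi5.

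Of 9 transcription regulators known for Pdk4, CBA/CaH had 3 lower at lactation and none higher, and QSi5 had 4 lower and 3 higher. Of all genes 29.5% were called lower and 30.4% higher in CBA/CaH, and 32.7% and 33.0% in QSi5. The counts of lower genes, and the QSi5 count of higher genes, are thus near the background. Foxo1 fell by 1.26 and fell by 1.17 (SE of 0.16 for both), Foxo3 fell by 1.27 and fell by 1.61 (SE of 0.21 for both), and Ppard, a nuclear receptor for fatty acids, fell by 1.00 and fell by 0.89 (SE of 0.19 for both). The Ppard call was lost in QSi5 after quantile normalization (adjusted p = 0.162). Ppargc1a, a coactivator of mitochondrial genes with a dim probe set, rose in QSi5 (1.75, SE of 0.25, adjusted p = 4.19e-05) whereas in CBA/CaH its difference was 0.21 (SE of 0.25, adjusted p = 0.492). The stage difference that depends on strain was not called (1.54, SE of 0.36, adjusted p = 0.217), but at lactation Ppargc1a was called higher in QSi5 than in CBA/CaH (1.82, SE of 0.28, adjusted p = 0.00675). Nr3c1 (1.19, SE of 0.39, adjusted p = 0.016) and Klf15 (0.95, SE of 0.26, adjusted p = 0.00586) were also called higher in QSi5. Esrra was called lower there (-0.82, SE of 0.19, adjusted p = 0.00199), and none of them was called in CBA/CaH. Ppara and Ppargc1b were not called in either strain.

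No strain difference was called in these genes. Of the 20 probe sets, limma called 0 between QSi5 and CBA/CaH at pregnancy, 0 at lactation and 0 for a stage difference that depends on strain, and none had an unadjusted p under 0.05 in any of the 3. Over all probe sets 1.09%, 0.289% and 0.104% were called. QSi5 minus CBA/CaH differences ran from -0.85 to 0.17 at pregnancy and from -1.12 to 0.33 at lactation, with Pdk4 lowest in both. The Pdk4 difference of -1.12 at lactation (SE of 0.88) came with the high lactation CBA/CaH 1 and was 0.17 without it. Between AIL mice with codes AQ and AC limma called 0 of the 20 probe sets as well (1 at an unadjusted p under 0.05), and 0% of all probe sets. Their differences ran from -0.20 to 0.75, the highest again being Pdk4 (0.75, SE of 0.69).

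The last comparison set the 10 AIL arrays against each parental strain at lactation. Against CBA/CaH 13 of the 20 probe sets were called, 12 higher and 1 lower. Of all probe sets 32.0% were called, 14.7% higher and 17.4% lower. Against QSi5 it was 12, with 11 higher and 1 lower, beside 36.0% of all probe sets, 15.7% higher and 20.3% lower. Both comparisons use the same AIL arrays. By brightest probe set 5 genes were higher than in CBA/CaH and 4 higher than in QSi5, with none lower. Of the 5071 genes as bright, 39.2% and 41.7% were called higher and 6.17% and 6.41% lower. Idh3a, Mdh2 and Pdha1 were higher than in both parents, which held for 13.1% of all genes. All genes are a lower background than the bright ones, with 18.0% and 19.4% called higher against CBA/CaH and QSi5. The share of the 5071 bright genes higher than in both parents was not computed. Whether the count of 3 exceeds a background of like brightness was therefore not tested. These 3 genes also stayed called after quantile normalization.

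Idh3a 1432016_a_at read 9.45, 9.45, 10.49, 9.36 and 9.65 on the AC arrays and 9.62, 9.81, 9.74, 9.68 and 9.42 on the AQ arrays, all above the parental lactation arrays (7.21 to 8.27). It was higher by 1.71 than in CBA/CaH (SE of 0.22, adjusted p = 1.59e-05, n = 10 and 3 in limma) and by 1.84 than in QSi5 (SE of 0.22, adjusted p = 6.6e-06, n = 10 and 3 in limma), and 99.4% and 99.6% of the 5071 bright genes had a lower difference. After quantile normalization it was 1.38 and 1.52. The opposite probe set 1447701_x_at was lower by 0.77 and 0.81 on the same arrays (-0.77 and -0.81, SE of 0.15 for both, adjusted p = 0.000679 and 0.000401).

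Mdh2 was higher by 0.78 than in CBA/CaH and 0.65 than in QSi5 (SE of 0.12 for both, adjusted p = 0.000134 and 0.000637). Pdha1 was higher by 0.66 and 0.54 through its brightest probe set (SE of 0.11 for both, adjusted p = 0.000241 and 0.00116), with AIL values of 11.57 to 11.87 against 10.75 to 11.31. Through the dimmer one it was higher by 1.61 and 1.32 (SE of 0.11 for both, adjusted p = 1.94e-08 and 1.85e-07). That probe set read 10.53 to 11.00 on the AIL arrays and 8.91 to 9.54 on the parental lactation arrays. Idh2 did not pass (0.17 and 0.15, SE of 0.13 for both, adjusted p = 0.325 and 0.369), nor did Pdk4 (-0.33 and 0.78, SE of 0.72 for both, adjusted p = 0.758 and 0.421). Pdk4 ran from 5.10 to 8.58 over the 10 AIL arrays, and its difference from CBA/CaH turned to 0.95 without lactation CBA/CaH 1. The brightest probe set of Cs differed by 0.02 and 0.16 (SE of 0.12 for both), whereas 1422577_at was higher by 1.04 and 0.73 (SE of 0.10 for both) and 1422578_at by 0.64 and 0.60 (SE of 0.12 for both). Quantile normalization turned the difference of the brightest Cs probe set from CBA/CaH to -0.14.

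The smaller AIL differences were less firm. Fh1 was called against CBA/CaH (0.39, SE of 0.13, adjusted p = 0.0256) but not without lactation CBA/CaH 1 or 3 (0.29 and 0.37, adjusted p = 0.147 and 0.0919), and its difference from QSi5 (0.19) turned to -0.16 after quantile normalization. Idh3b was called against CBA/CaH (0.40, SE of 0.11, adjusted p = 0.0108), not without lactation CBA/CaH 1 (0.31, adjusted p = 0.0864), and its difference from QSi5 (0.15) turned to -0.19 after quantile normalization. Idh3g was called against QSi5 (0.37, SE of 0.10, adjusted p = 0.00735), not without lactation QSi5 2 (0.30, adjusted p = 0.0632), and its difference from CBA/CaH (0.23) turned to -0.045 after quantile normalization. It was called against CBA/CaH without AIL AC 1 (0.26, adjusted p = 0.0499). The second Idh3g probe set was called against both (0.50 and 0.62, SE of 0.12 for both), not against CBA/CaH without lactation CBA/CaH 3 (0.37, adjusted p = 0.0607). Idh3a 1422500_at was called against both (0.50 and 0.47, SE of 0.15 for both), not without lactation CBA/CaH 1 or 3 (0.43 and 0.45, adjusted p = 0.0832 and 0.0831) or lactation QSi5 2 (0.25, adjusted p = 0.234). The dim Idh3b probe set was called against both (0.60 and 0.44, SE of 0.14 for both), not against QSi5 without lactation QSi5 3 (0.29, adjusted p = 0.17).

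The Gapdh 3' minus 5' value moved with the AIL comparison. It ran from 0.54 to 0.80 on the AIL arrays and from 1.12 to 2.02 on the parental lactation arrays, without overlap, so line and this value cannot be told apart here. Fibroblast markers ran from -0.34 to 0.70 on the AIL arrays and from -1.67 to -0.83 on the parental lactation arrays, and endothelial markers from -0.69 to 0.36 and from -0.89 to -0.66. White adipocyte markers ran from -0.67 to 0.78 and from -1.43 to -0.60, and macrophage markers from -0.20 to 0.47 and from -1.13 to -0.04. Their part in the AIL differences was not tested. Between the parental stages the Gapdh value overlapped, with 0.89 to 6.50 at pregnancy. In a comparison chosen after seeing the data, the difference between probe sets of 1 gene was also set between the AIL and the parental lactation arrays (8008 arrangements, smallest possible p 0.000125). The opposite Idh3a pair, 1447701_x_at minus 1432016_a_at, changed by -2.57, as a description. Of the other 10 pairs 9 passed, among them the further Idh3a pairs, which share 1432016_a_at and are descriptions too. The Pdha1 pair changed by 0.87 and Cs 1422577_at by 0.80 (exact permutation, adjusted p = 0.000229 for both). Limma had already called the dimmer Pdha1 probe set and Cs 1422577_at higher on the same arrays. These p-values are therefore no separate support.

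**Figure D5:**
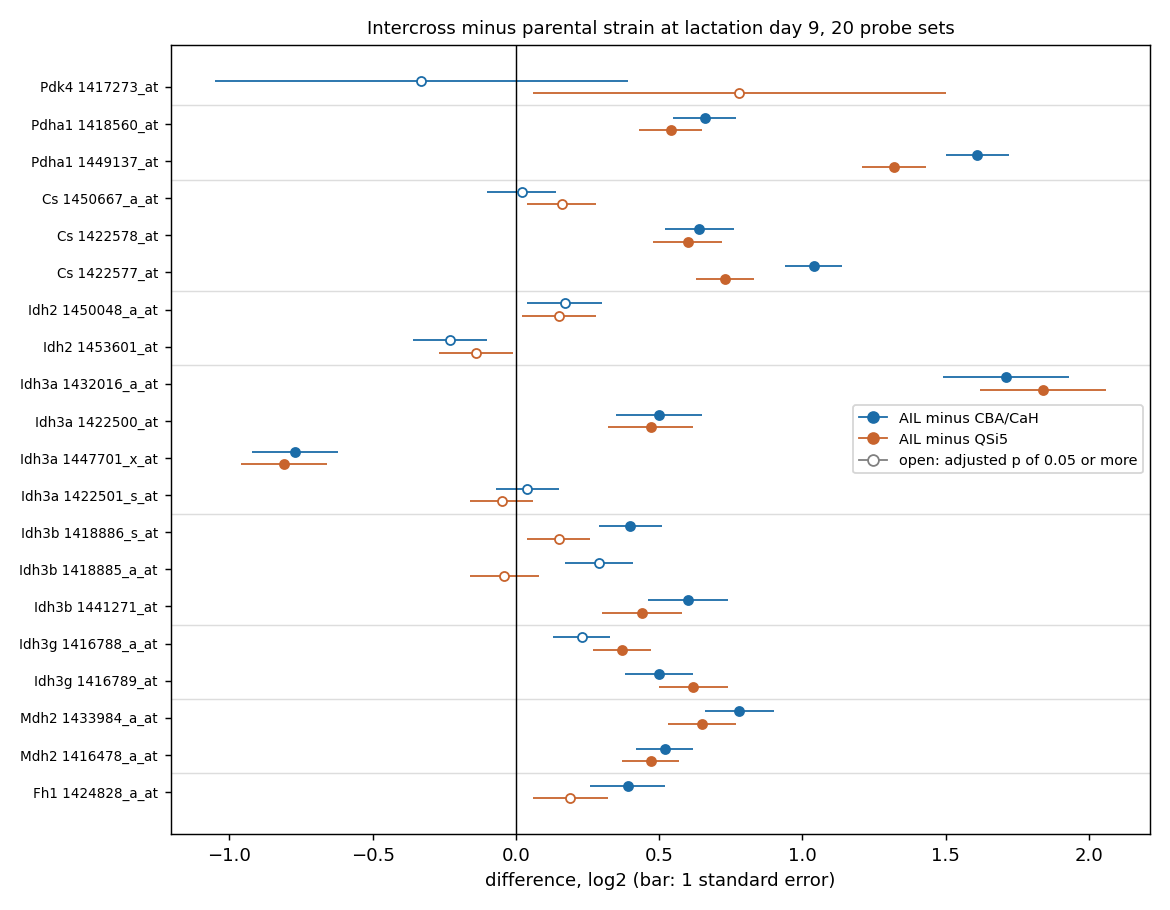
AIL minus parental strain difference (log2, with 1 standard error) of the 20 probe sets at lactation day 9, against CBA/CaH and against QSi5 (10 against 3 arrays each); filled points had an adjusted p under 0.05. Idh3a 1432016_a_at and Pdha1 1449137_at lie farthest to the right (1.71 and 1.84, 1.61 and 1.32), and Idh3a 1447701_x_at is the called probe set below 0.

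Over all genes, 18.0% were called higher in AIL mice than in CBA/CaH and 19.4% than in QSi5, and 16.2% and 18.5% lower. Of the 5071 bright genes, 39.2% and 41.7% were called higher and 6.17% and 6.41% lower. The bright genes are the nearer background for the cycle list, whose genes are all that bright. They are also nearer for the general mitochondrial list, in which only Tfam was dimmer. In the list of 17 citric acid cycle genes, 12 were higher in AIL mice than in each parent and none lower, a count that was 6 higher and 1 lower against CBA/CaH and 7 higher and 1 lower against QSi5 after quantile normalization. Of 15 genes of pyruvate entry, 7 were higher and 1 lower than in CBA/CaH, and 6 higher and 1 lower than in QSi5, which became 5 and 1, and 3 and 2, after quantile normalization. Dld was higher than in both (1.60 and 1.56), and Pcx as well (1.28 and 0.82). Of 12 general mitochondrial genes, 6 were higher and 1 lower than in CBA/CaH, and 7 higher and 1 lower than in QSi5. After quantile normalization the counts of these genes were 4 higher and 2 lower, and 4 higher and 1 lower, with medians of 0.02 and 0.04. Without the arrays that stood apart the QSi5 count was 4 higher and 0 lower.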

How the data were processed

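Total RNA of 26 inguinal mammary glands, extracted with a column kit, was labelled with biotin and hybridised, per the labels' protocols. What the authors deposited is RMA output on the log2 scale, 1 value for each probe set and array, per the submitters' processing notes. Its version, and whether all arrays were processed together, are not given in the sources used here. Values ran from 2.34 to 15.1, and array medians from 4.9984 to 5.2995. The number of arrays limits the precision.

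The values were used as deposited. Of 45101 probe sets, 64 controls were left out. GEO's platform annotation gave 34945 probe sets 1 symbol, 932 several and 9160 none. The probe set of highest mean level stands for its gene. Stage and strain were tested on the 16 parental arrays, and AIL on the 16 of lactation, by lmFit and eBayes (limma 3.58.1, R 4.3.3), and a call is a Benjamini-Hochberg adjusted p under 0.05 over 45037 probe sets. The fits were tested on simulated data. Named genes are all members, and per list up to 4 called genes with the largest stage difference and up to 2 uncalled ones with the highest level. A few further list genes are named outside this rule. Alternatives were other scalings, a filter on means under 5, other variance models and sets of arrays, a replicate block, and each array left out in turn. Members and lists were chosen with earlier results of these data known.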

Additional observations from a re-analysis of the deposited data

Results flagged for a closer look

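In a test for an array far from the others of its group (Dixon's ratio, groups of 5), 13 of the 80 groups of values tested were marked, where chance marks about 1 in 20. Pregnancy QSi5 4 accounted for 6 of them. It was low for Cs 1422578_at (9.20, others 10.76 to 10.88), Idh3a 1432016_a_at (8.21, others 9.82 to 10.21), Idh3g 1416789_at (8.31, others 9.88 to 10.07), Mdh2 1416478_a_at (10.36, others 10.97 to 11.15) and Pdha1 1418560_at (10.44, others 11.49 to 11.72). It was high for Idh3g 1416788_a_at (11.5, others 10.86 to 10.92). This array also had the highest Gapdh 3' minus 5' value, 6.50, whose part in these values was not tested.

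Pregnancy CBA/CaH 5, the array with raised brown adipocyte markers (2.45), accounted for 4. It was high for Idh3a 1422501_s_at (7.83, others 6.6 to 6.88), Idh3b 1418886_s_at (11.64, others 10.04 to 10.39), Idh3b 1418885_a_at (11.16, others 9.66 to 9.92) and Idh3g 1416788_a_at (12.33, others 10.80 to 11.12). Among the AIL arrays, AC 3 was high for Idh3a 1432016_a_at (10.49, others 9.36 to 9.65), AQ 3 low for Idh3b 1418886_s_at (9.07, others 9.43 to 9.55) and AQ 4 high for Idh3g 1416788_a_at (10.73, others 10.53 to 10.56).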

How the results depend on the processing

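Of 1836 values of single results under an alternative, 1700 kept their direction and side of the threshold, 82 lost a call, 21 gained one, 5 counts of genes moved and 28 changed sign. AIL against CBA/CaH gave 8 member probe sets (main 13) after quantile normalization and 8 with all 26 arrays in 1 fit. AIL against QSi5 gave 7 (main 12) with all 26 arrays in 1 fit. With each array left out, counts were 9 to 12 for stage in each strain, 10 to 14 and 10 to 12 for AIL, 6 to 8 for pairs of probe sets, and 0 for strain, strain by stage and AQ against AC. Correlations of same-numbered arrays ran from -0.426 to 0.316 over all pairs of groups compared. Between AIL AC and AQ they ran from 0.007 to 0.316, with 4 of 5 over 0.1, and 3 samples were most like their own number. In pregnancy and lactation CBA/CaH 3 samples were so too, between the strains 0. These values do not settle whether replicate numbers pair the samples, and the main fits did not pair them. With the replicate block counts were 11 and 10 for stage, 10 and 10 for AIL and 0 elsewhere.

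Sign changes of uncalled values included the following. After quantile normalization Idh3a 1422500_at (0.081) and 1422501_s_at (0.078) turned in CBA/CaH, Idh3g 1416789_at (0.165) and Pdha1 1418560_at (0.274) in QSi5, and for AIL Idh3g 1416788_a_at (-0.045), Fh1 (-0.164) and Idh3b 1418886_s_at (-0.194). For AIL the brightest probe set of Idh2 turned as well (-0.15 against CBA/CaH and -0.21 against QSi5), and that of Cs against CBA/CaH (-0.14). Idh3b 1418885_a_at in QSi5, called in the main analysis, turned to 0.065. With equal medians Cs 1450667_a_at (-0.077 and -0.024), Pdha1 1449137_at (-0.032) and Idh3a 1422501_s_at (-0.061) turned, the last also with array weights (-0.011). Without the arrays that stood apart, the pairs of Idh3g (-0.037) and Mdh2 (-0.021) turned. With arrays left out in turn, the range crossed 0 for Cs 1450667_a_at in CBA/CaH (-0.05 to 0.329), Idh3b 1441271_at in QSi5 (-0.195 to 0.092), Pdk4 for strain at lactation (-1.959 to 0.173), strain by stage (-1.105 to 1.027) and AIL against CBA/CaH (-1.178 to 0.954), and the pairs of Mdh2 (-0.017 to 0.077) and Idh3g (-0.022 to 0.275). The cause of these changes was not tested. With 3 parental lactation arrays per strain, small differences were not detectable.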
